A study of Mus musculus with 2 samples.

Results

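Followed here were 10 genes linked to recruited monocytes, Ccr2, Ly6c2, Chil3, Plac8, Ms4a4c, Ms4a6c, Wfdc17, Csf2ra, Csf2rb and Arg1, picked by name out of 24346 gene symbols. RNA sequencing was done on mouse heart tissue from a model labelled HFD-MI, which the study's title expands for the second part as myocardial infarction. HFD was read here as high-fat diet. There were 2 libraries, 1 from heart tissue under treatment with the cholesterol-lowering antioxidant probucol and 1 from untreated heart tissue, and both carry the age label day 14. The age label does not name the event from which days were counted, and the genotype, dose, part of the heart and number of animals behind each library were not stated in the labels. The names of both deposited tables carry the mark HypoE, which the labels do not explain and which was not interpreted. With 1 library per group no difference has a replicate check, no test was possible, and every statement compares these libraries, not the treatments.

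After an infarct, the bone marrow and spleen release classical monocytes, which carry high Ly6C and the receptor Ccr2 on their surface. Ccr2 ligands made in the injured tissue draw these cells in, where they take part in clearing debris and mature into macrophages. Granulocyte-macrophage colony-stimulating factor (GM-CSF), sensed through Csf2ra and Csf2rb, further shapes their inflammatory state. Several of the genes are not exclusive to monocytes: neutrophils, macrophages and dendritic cells use some of them too.

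All 10 genes were lower in the probucol library. Levels are in FPKM, which counts sequenced fragments per kilobase of a gene's transcript relative to all that were mapped. Differences are given as the log2 ratio of probucol to untreated after 0.5 FPKM was added to both, which understates the difference of low genes. All 10 had a mean of at least 0.5 FPKM, the level from which 12882 genes of the series were counted as measured; Arg1 reached it through the untreated library only. Their median log2 ratio was -1.28, a 2.43-fold lower level, and single genes lay between -3.09 and -0.77. The median over all measured genes was 0.01. Of the 10 genes, 8 were at least 2-fold lower, against 5.14% of all measured genes. At least 1.5-fold lower were 10 of the 10, against 12.0% of all measured genes. None of the 10 lay above 0, while 49.1% of measured genes lay below it and 5.52% were at least 1.5-fold higher. Among measured genes with a mean under 2 FPKM, the class of Ly6c2, Chil3, Ms4a4c and Arg1, 8.40% were at least 2-fold lower. In bulk tissue, fewer cells of a type and less RNA per cell cannot be told apart.

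**Figure D1:**
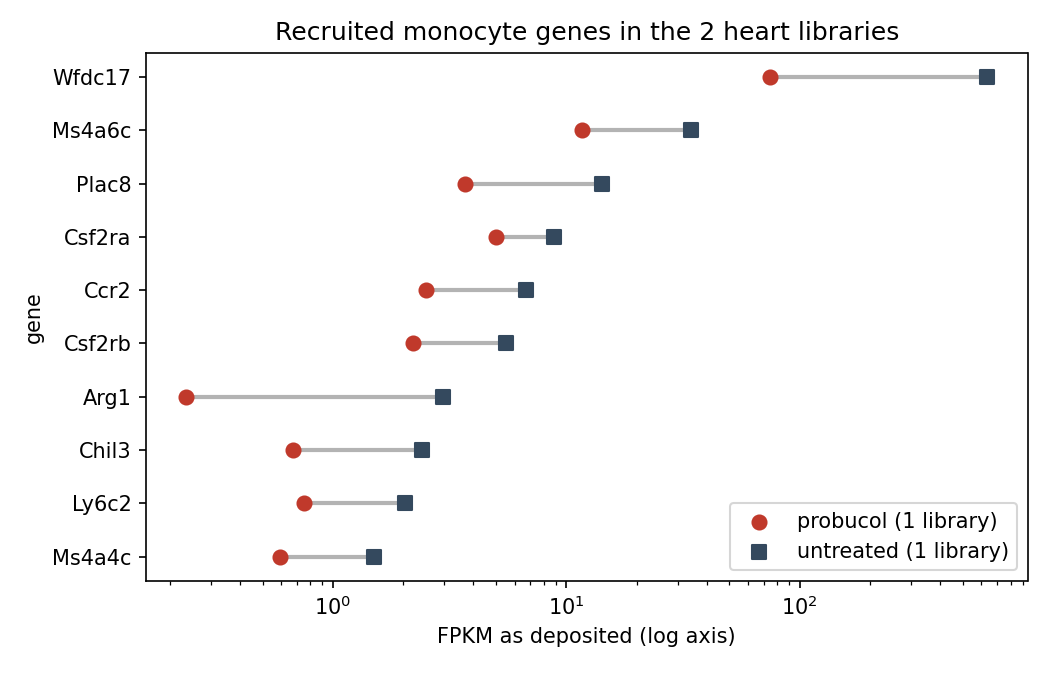
FPKM of the 10 genes in the probucol library (red circles) and the untreated library (dark squares), on a log axis, 1 library per group. Each red circle lies to the left of its square, from Csf2ra at 5.01 against 8.89 FPKM to Arg1 at 0.235 against 2.95 FPKM.

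Depth differed widely between the 10 genes. From the steps between low values, a level of 1 FPKM over 1 kb of effective length equals 6.69 fragments with probucol and 7.46 without. On this scale Wfdc17 had 161 against 1533 fragments, whereas Ly6c2 had 3 against 9. Fewer than 20 fragments in the probucol library stood behind 5 of the 10 genes: Ly6c2, Chil3, Plac8, Ms4a4c and Arg1. The 95% intervals given below for ratios of fragments are exact binomial (Clopper-Pearson) and reflect counting alone, because fragments copied by PCR are not separate molecules. For 8 of the 10 genes the interval of the probucol to untreated ratio ended below 1, and for Ly6c2 and Ms4a4c it included 1. The 8 include Arg1, which counted as measured through the untreated library only. The share of all measured genes with such an interval was not determined, so the count of 8 has no scale. Small differences also pass where fragments are many, as for Jak2 (0.667 to 0.898).

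Ccr2, the chemokine receptor that lets classical monocytes leave the marrow and enter tissue, is gene ENSMUSG00000049103.14 (GRCm38/mm10 chromosome 9, 124101950 to 124113557). It had 2.52 FPKM with probucol and 6.69 FPKM without, a log2 ratio of -1.25. These levels rest on about 47 and 139 fragments, with a ratio of 0.377 and an interval from 0.265 to 0.528. The difference in Ccr2 was larger than counting error. All 4 of its measured ligands were lower as well: Ccl2 had 15.5 against 52.6 FPKM and Ccl7 had 14.4 against 32.4 FPKM. Ccl12, a mouse ligand of the same receptor, had 5.47 against 16.7 FPKM. Ccl8, a related monocyte chemoattractant that also acts on other receptors, had 81.9 against 561 FPKM, a log2 ratio of -2.77. The median log2 ratio of the 4 ligands was -1.63, below that of Ccr2 itself. Of other chemokine receptors of monocytes, Ccr1 had 0.968 against 2.45 FPKM and a log2 ratio of -1.01. Cxcr4 (-0.81) and Cx3cr1 (-0.65), the receptor of patrolling monocytes, were lower by less, so that all 3 were at least 1.5-fold lower and only Ccr1 reached the 2-fold limit.

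Ly6c2 encodes the Ly6C antigen by which classical monocytes are sorted, a small protein anchored to the cell surface (ENSMUSG00000022584.14, chromosome 15, 75108158 to 75111970). It had 0.756 FPKM with probucol and 2.03 FPKM without, a log2 ratio of -1.01. About 3 and 9 fragments stand behind these levels, and the ratio of 0.371 has an interval from 0.0647 to 1.49. No difference in Ly6c2 was therefore detectable at this depth. Its neighbour Ly6c1, which endothelial cells express strongly, had 353 against 323 FPKM, 467 times the level of Ly6c2 with probucol and 159 times without. The copies were compared because fragments from the abundant copy could be assigned to the rare one. The first 180 coding bases are shown, chosen as the stretch of that length with the most differences, 6 in all. Capitals mark the positions at which the copies differ, and the sequences are those of GENCODE M21 transcripts:
Ly6c2: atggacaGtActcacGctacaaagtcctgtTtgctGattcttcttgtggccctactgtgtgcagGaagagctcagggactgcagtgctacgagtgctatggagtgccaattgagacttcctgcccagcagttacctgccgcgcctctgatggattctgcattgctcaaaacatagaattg
Ly6c1: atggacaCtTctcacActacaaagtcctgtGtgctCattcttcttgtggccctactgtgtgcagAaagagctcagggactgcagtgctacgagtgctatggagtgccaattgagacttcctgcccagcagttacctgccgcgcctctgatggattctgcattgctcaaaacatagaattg
Over the whole coding sequence of 396 bases the copies differed at 9 positions, an identity of 97.7%, and the longest identical run was 188 bases. Of all 50-base windows in the Ly6c2 transcript, 33.0% occurred unchanged in another gene, Ly6c1 or Ly6a. The labels do not state how the authors' counting divided such fragments, so the level of Ly6c2 is uncertain. Summed over Ly6c2 and Ly6c1, the log2 ratio was 0.12, the opposite direction from Ly6c2 alone. This sum is nearly all Ly6c1, whose own log2 ratio was 0.13, so it cannot show the direction of Ly6c2. The other members of the Ly6 family did not stand out: of 4 measured, 0 passed the 1.5-fold limit in either direction, with Ly6a at -0.41 and Ly6e at -0.32. The 8 endothelial markers, which include the vascular cadherin Cdh5 (64.8 against 63.4 FPKM), had a median log2 ratio of 0.01 but went both ways. Vwf (-0.69) and Cldn5 (-0.61) passed the 1.5-fold limit downwards, and Tie1 was highest at 0.40.

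Plac8, a small cysteine-rich protein abundant in classical monocytes, is gene ENSMUSG00000029322.12 (chromosome 5, 100553725 to 100572245). It had 3.67 FPKM with probucol and 14.3 FPKM without, a log2 ratio of -1.82. The levels rest on about 13 and 57 fragments, with a ratio of 0.254 and an interval from 0.128 to 0.470. Only 0.831% of measured genes had a log2 ratio as low as that of Plac8 or lower. No 50-base window of its transcript occurred in another protein-coding gene, so the value is free of shared fragments at that length.

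Chil3, also called Ym1, is a secreted chitinase-like protein of myeloid cells (ENSMUSG00000040809.10, chromosome 3, 106147554 to 106167564). It had 0.673 FPKM with probucol and 2.41 FPKM without, a log2 ratio of -1.31. About 6 and 24 fragments gave a ratio of 0.279 with an interval from 0.0931 to 0.699. Its near-identical copy Chil4 was listed at 0 in both libraries, although 18.5% of the 50-base windows of Chil3 also occur in Chil4. Alveolar macrophages of the lung make Chil3 in abundance. Of 6 lung markers, 5, among them the surfactant gene Sftpc and the secretoglobin Scgb1a1, were listed at 0 in both libraries. Ager, the remaining marker, had 0.133 against 0.232 FPKM, about 1 and 2 fragments. A lung source of Chil3 was not tested. Of 2 other chitinase-like genes measured, Chid1 had a log2 ratio of -0.03, and Chil1, which counted as measured only through its probucol level, had 1.01 against 0.362 FPKM.

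Wfdc17, a small secreted protein of the whey acidic protein family that activated macrophages produce, was by far the most abundant of the 10 genes (ENSMUSG00000069792.5, chromosome 11, 83703991 to 83706268). It had 74.4 FPKM with probucol and 636 FPKM without, a log2 ratio of -3.09. Its 161 and 1533 fragments gave a ratio of 0.117 with an interval from 0.0988 to 0.138, the narrowest of the set. Wfdc17 ranked 21st from the lowest log2 ratio among all 12882 measured genes. It made up 89.0% of the summed FPKM of the 10 genes without probucol and 73.2% with it. Without it, the other 9 genes summed to 27.3 against 78.5 FPKM, 2.88-fold lower. Of its 3 measured relatives 0 passed the 1.5-fold limit. Wfdc1 had 19.3 against 16.4 FPKM, and its 150 and 142 fragments gave a ratio of 1.18 with an interval from 0.929 to 1.49. Wfdc21 (2.60 against 2.33 FPKM) rests on 4 fragments in each library, and Slpi, the secretory leukocyte protease inhibitor (2.01 against 2.61 FPKM), on 9 and 13. The intervals of their ratios, from 0.208 to 5.98 and from 0.291 to 1.95, leave room for differences in either direction. The transcript of Wfdc17 has 533 bases, so its FPKM depends strongly on the effective length that the authors' software assumed, which affects the level more than the ratio.

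Ms4a4c and Ms4a6c encode membrane-spanning proteins of a family found across immune cells, and both lie in the same gene cluster on chromosome 19. Ms4a6c (ENSMUSG00000079419.4, 11469366 to 11482192) had 11.6 FPKM with probucol and 34.2 FPKM without, a log2 ratio of -1.52. About 127 and 416 fragments gave a ratio of 0.340 with an interval from 0.277 to 0.416. Ms4a4c (ENSMUSG00000024675.19, 11404770 to 11427246) had 0.592 FPKM with probucol and 1.5 FPKM without, a log2 ratio of -0.88. With 6 against 17 fragments, its ratio of 0.393 had an interval from 0.127 to 1.05, so no difference was detectable for Ms4a4c at this depth. Of 6 other Ms4a genes measured, 5 passed the 2-fold limit downwards, and the median log2 ratio was -1.56. Ms4a4b (0.142 against 1.28 FPKM) and Ms4a8a (0 against 1.07 FPKM) are among these 5, but they counted as measured only through the untreated library, which fixed their direction. Of the other 4, 3 passed. Ms4a7, a gene of mature macrophages that is also among the macrophage markers below, had 18.9 against 68.5 FPKM. Ms4a6d had 17.3 against 55.4 FPKM and Ms4a6b had 6.46 against 15.7 FPKM. The exception was Ms4a4d, at 14.6 against 21.7 FPKM and a log2 ratio of -0.56. Of the 50-base windows of Ms4a6c, 7.37% occur in another gene, Ms4a6b foremost. Summed over Ms4a6c and its relatives Ms4a6b and Ms4a6d, the log2 ratio was -1.56, close to that of Ms4a6c alone. Summed over Ms4a4c, Ms4a4b and Ms4a4d, it was -0.66, nearer to 0 than that of Ms4a4c alone.

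Csf2ra and Csf2rb form the receptor for GM-CSF. Csf2ra, the chain that binds GM-CSF alone (ENSMUSG00000059326.7, chromosome 19, 61223957 to 61228429), had 5.01 FPKM with probucol and 8.89 FPKM without. Its log2 ratio of -0.77 was the smallest difference of the 10 genes, and its 55 and 109 fragments gave a ratio of 0.562 with an interval from 0.399 to 0.784. Csf2rb, the signalling chain shared with the receptors of interleukins 3 and 5 (ENSMUSG00000071713.6, chromosome 15, 78325752 to 78353847), had 2.2 FPKM with probucol and 5.52 FPKM without. Its log2 ratio was -1.16, and about 67 and 188 fragments gave a ratio of 0.397 with an interval from 0.296 to 0.527. The intervals of the 2 chains overlapped, and whether their changes differ in size was not tested. Csf2rb2, the mouse copy of Csf2rb that serves interleukin 3, had 1.67 against 5.35 FPKM, and the sum of both copies had a log2 ratio of -1.38. Of the 50-base windows of Csf2rb, 19.0% occur in another gene, Csf2rb2 foremost.

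The ligands of these receptors were too scarce to compare, and the signalling genes varied. Csf2, which encodes GM-CSF, was listed at 0 with probucol and at 0.162 FPKM without, a value of about 1 fragment, and Il3 was listed at 0 in both. Il3ra, the interleukin 3 chain, had a log2 ratio of -0.50, the kinase Jak2 had -0.35, and the transcription factors Stat5a and Stat5b had -0.01 and 0.26. Cish, a feedback inhibitor that STAT5 induces, had 34.9 against 34.5 FPKM. Socs3, a feedback inhibitor of several cytokine pathways, was lower, at 5.70 against 13 FPKM. Of 9 measured genes of this group, 3 were at least 1.5-fold lower (Csf2rb2, Socs3 and Socs1) and 0 higher, with a median log2 ratio of -0.50. Socs1 counted as measured through the untreated library only.

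Arg1, the cytosolic arginase that splits arginine into ornithine and urea, is a gene of repair-type macrophages and of early infarct macrophages (ENSMUSG00000019987.9, chromosome 10, 24915221 to 24927484). It had 0.235 FPKM with probucol and 2.95 FPKM without, a log2 ratio of -2.23. The plain ratio of levels was 12.5-fold, the widest of the set, but it rests on 2 against 28 fragments. Counting error alone allows a level between 3.17 and 109 times lower. Of 9 other genes of arginine metabolism measured, 0 passed the 1.5-fold limit in either direction and their median log2 ratio was -0.13. Nos2, the inducible nitric oxide synthase that competes for arginine, had 2.57 against 3.29 FPKM. Odc1, which turns ornithine into putrescine, had 38.8 against 39.6 FPKM, and Arg2, the mitochondrial arginase, was listed at 0 with probucol and at 0.222 FPKM without. Arg1 and Chil3 are both textbook targets of interleukin 4 in mouse macrophages, and 7 other genes of that response were measured. Of these the receptor chain Il4ra, at 7 against 14.5 FPKM, passed the 1.5-fold limit downwards and Mgl2, at 6.46 against 3.59 FPKM, upwards. Retnla (2.68 against 1.72 FPKM) lay inside the limit and rests on about 7 and 5 fragments. The median log2 ratio of the 7 genes was -0.09.

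**Figure D2:**
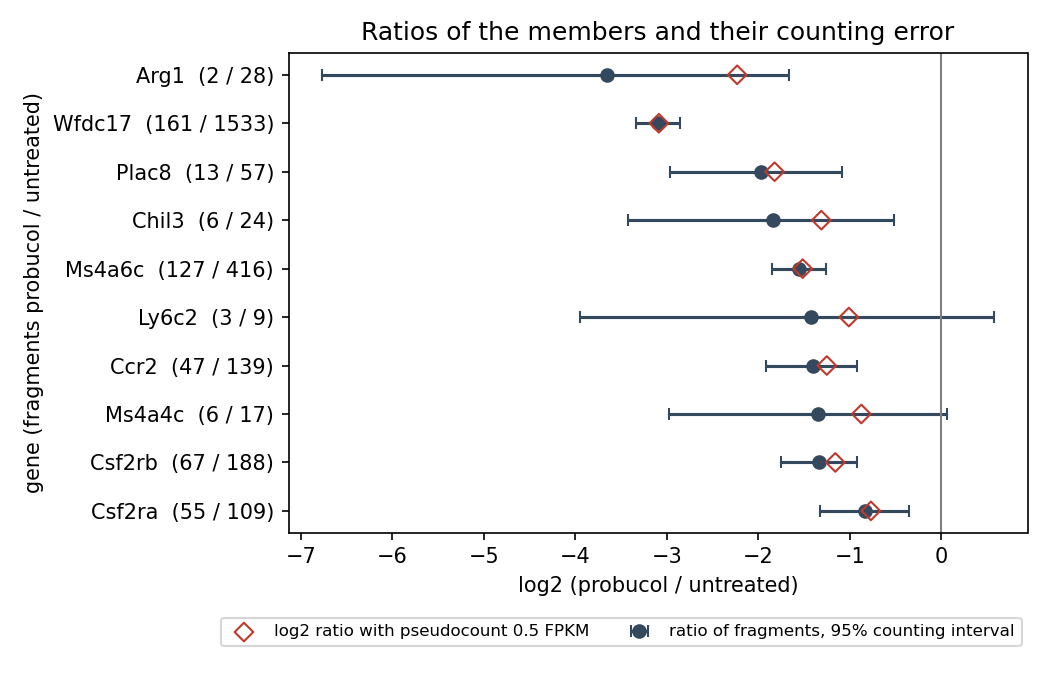
Log2 ratio of probucol to untreated for each gene, from estimated fragments (dark points, bars are exact binomial 95% intervals of counting error) and from FPKM with 0.5 added (open red diamonds). Fragment numbers are given beside each name; the bars of Ly6c2 and Ms4a4c cross 0, and the diamond lies nearer to 0 than the point where fragments are few, as for Arg1 and Chil3.

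Few pairs of the 10 genes had counting intervals that lay apart. In the order of the log2 ratio, every neighbouring pair had overlapping counting intervals. Of 45 possible pairs, 5 did not overlap: Wfdc17 lay below Ms4a6c, Ccr2, Csf2rb and Csf2ra, and Arg1 lay below Csf2ra. Overlap is a stricter bar than a direct comparison of counts, which was not made, so overlapping pairs may still differ. The share of such pairs among all measured genes was not determined. The order of levels was nearly the same in both libraries, with Wfdc17 first and Ms4a6c second. Arg1 took the seventh place in the untreated library and the tenth in the probucol library.

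Other markers of classical monocytes were lower too, and the median of the nonclassical markers lay nearer to 0. Of 12 measured markers of classical monocytes outside the 10 genes, 11 passed the 1.5-fold limit downwards and 7 the 2-fold limit, and their median log2 ratio was -1.13. Ifitm6, among the 11, counted as measured through the untreated library only and rests on about 1 and 4 fragments. Without it, 10 of 11 passed the 1.5-fold limit. F13a1, the coagulation factor XIII subunit that monocytes and some resident macrophages make, had 25.4 against 68.3 FPKM. Hp, which encodes haptoglobin, had 18.8 against 55.2 FPKM. Mgst1, a glutathione transferase also found in other cells, was the 1 marker inside the limit, at 91.1 against 93.3 FPKM. Among 11 markers of nonclassical monocytes 3 passed the 1.5-fold limit downwards (median -0.38). The lowest was the Fc receptor gene Fcgr4 (-1.62). Nr4a1, the transcription factor on which nonclassical monocytes depend, had 10.9 against 17.8 FPKM. Treml4, measured through the untreated library only, had 0.495 against 0.798 FPKM. Other heart cells also express members of the nonclassical list, such as the muscle enolase Eno3, at 1337 against 914 FPKM, and the endothelial Fabp4. The classical list is likewise not exclusive to monocytes, as for F13a1 and Mgst1. The part of other cells in the medians of both lists was not tested.

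Markers of leukocytes in general were lower as well. Ptprc, which encodes the leukocyte antigen CD45, had 4.03 against 12.0 FPKM, a log2 ratio of -1.47, and all 7 general leukocyte genes were at least 1.5-fold lower (median -1.47). About 121 and 403 fragments of Ptprc gave a ratio of 0.335 with an interval from 0.271 to 0.411. The intervals of 9 of the 10 genes overlapped it, that of Csf2ra (0.399 to 0.784) only at its edge. Wfdc17 was the exception, with a log2 ratio -1.62 relative to that of Ptprc. Overlap is not a test of equal ratios, so whether the 9 genes changed by another amount than CD45 was not tested. Wide intervals overlap easily, such as that of Ly6c2 (0.0647 to 1.49). The share of all measured genes whose interval overlaps that of Ptprc was not determined, so the count of 9 has no scale. The macrophage markers, 10 in all, passed the 1.5-fold limit without exception (median -1.56), led by Cd68 at 27.0 against 140 FPKM. Of 8 markers of resident cardiac macrophages, 7 were at least 2-fold lower (median -1.41), with the scavenger receptor gene Cd163 at 6.18 against 14.8 FPKM. Lyve1, a marker that lymphatic vessels share, was the exception at 5.67 against 7.42 FPKM. Macrophages of both origins express some of the 10 genes, and the part of these lower macrophage levels in their values was not tested.

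Markers of neutrophils, which also carry Csf2ra and Csf2rb, were split. The alarmin genes S100a8 (73.9 against 52.4 FPKM) and S100a9 (64.9 against 42.4 FPKM) had higher values with probucol, of which S100a9 passed the 1.5-fold limit and S100a8 did not. Retnlg, a resistin-like gene of neutrophils, also passed it upwards, at 4.11 against 2.01 FPKM, but rests on 11 and 6 fragments. Csf3r, the receptor of the granulocyte growth factor, had 1.37 against 3.53 FPKM, and the granule gene Camp was listed at 0 against 2.06 FPKM. Of 8 measured neutrophil markers, 5 were at least 1.5-fold lower and 2 higher. Mmp8, Camp and Ngp, among the 5, counted as measured through the untreated library only, and without these 3 genes 2 were lower and 2 higher. The whole list summed to 146 against 107 FPKM, most of it from the alarmins. Of 5 measured dendritic cell markers 2 were at least 1.5-fold lower, Itgax (-1.41) and Clec10a (-0.91), and the median was -0.05. Of the eosinophil and mast cell markers 5 were measured and 3 passed the 1.5-fold limit downwards (median -0.70), while the eosinophil genes Epx and Prg2 were listed at 0 in both libraries. Lymphocyte markers were scarce, with 2 of 8 measured. Among 8 fibroblast markers 5 passed the limit downwards (median -0.70). All 8 cardiomyocyte markers lay above 0, with a median of 0.45, and their summed level was 81333 against 59084 FPKM. The part of these shifts in the values of the 10 genes was not tested.

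**Figure D3:**
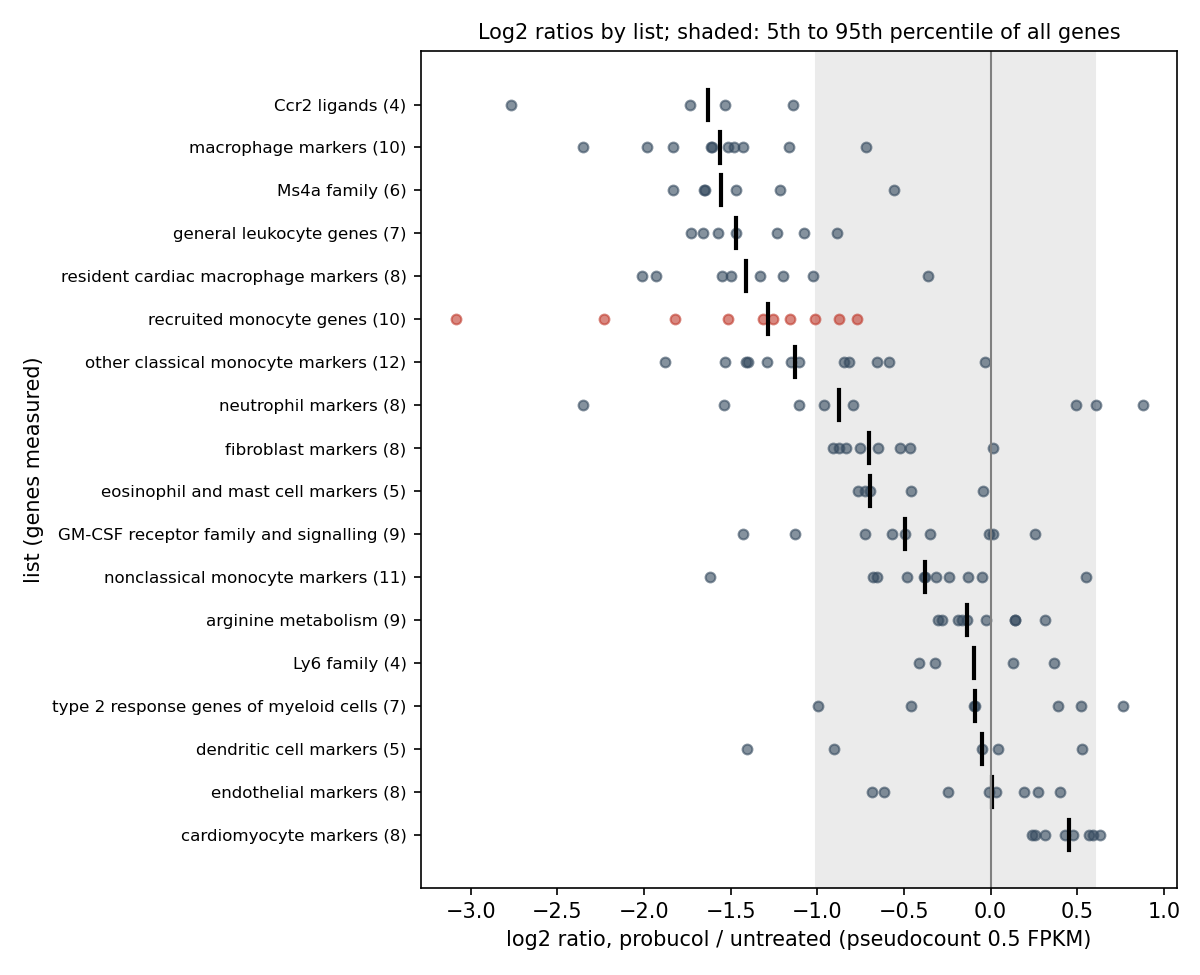
Log2 ratio of every measured gene by list, for lists with at least 4 measured genes; black bars are medians, red points the recruited monocyte genes, and the grey band spans the 5th to 95th percentile of all 12882 measured genes (-1.01 to 0.60). The recruited monocyte genes (median -1.28) lie between the resident macrophage markers (-1.41) and the other classical monocyte markers (-1.13), and 8 of the 10 lie to the left of the band.

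Some of the 10 genes sit beside genes that were also lower. Neighbours were taken as protein-coding genes whose start lies within 200 kb, a distance chosen after the data were seen. Around Wfdc17, 5 of 7 measured genes passed the 1.5-fold limit downwards, and all 5 were chemokines on its upstream side. These were Ccl6 (-2.13), Ccl3 (-1.87), Ccl9 (-1.64), Ccl5 (-0.74) and Ccl4 (-0.63), while Wfdc21 (0.13) and Heatr6 (0.06) on the other side lay inside the limit. Around Ms4a6c, 5 of 6 measured genes passed the 1.5-fold limit, all of the Ms4a family, and Ms4a4d (-0.56) did not. Among these 5 are Ms4a4b, measured through the untreated library only, and Ms4a4c, whose counting interval included 1. Around Ms4a4c, in the same cluster, 4 of 5 passed, which is not a separate count. They are Ms4a6c itself and Ms4a7, Ms4a4b and Ms4a6b, which were already counted around Ms4a6c. Around Csf2rb 3 of 6 passed: its copy Csf2rb2, Ift27 (-1.03) and Kctd17 (-0.76). Around Plac8 1 of 5 measured genes passed, Hpse, the heparan sulphate cleaving enzyme heparanase (-1.60), and around Arg1 1 of 2 passed, Enpp3 (-0.59). None of the 3 measured neighbours of Ly6c2 or the 2 of Csf2ra passed, and Chil3 had 0 measured neighbours. Over all measured genes the share was 12.0%.

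**Figure D4:**
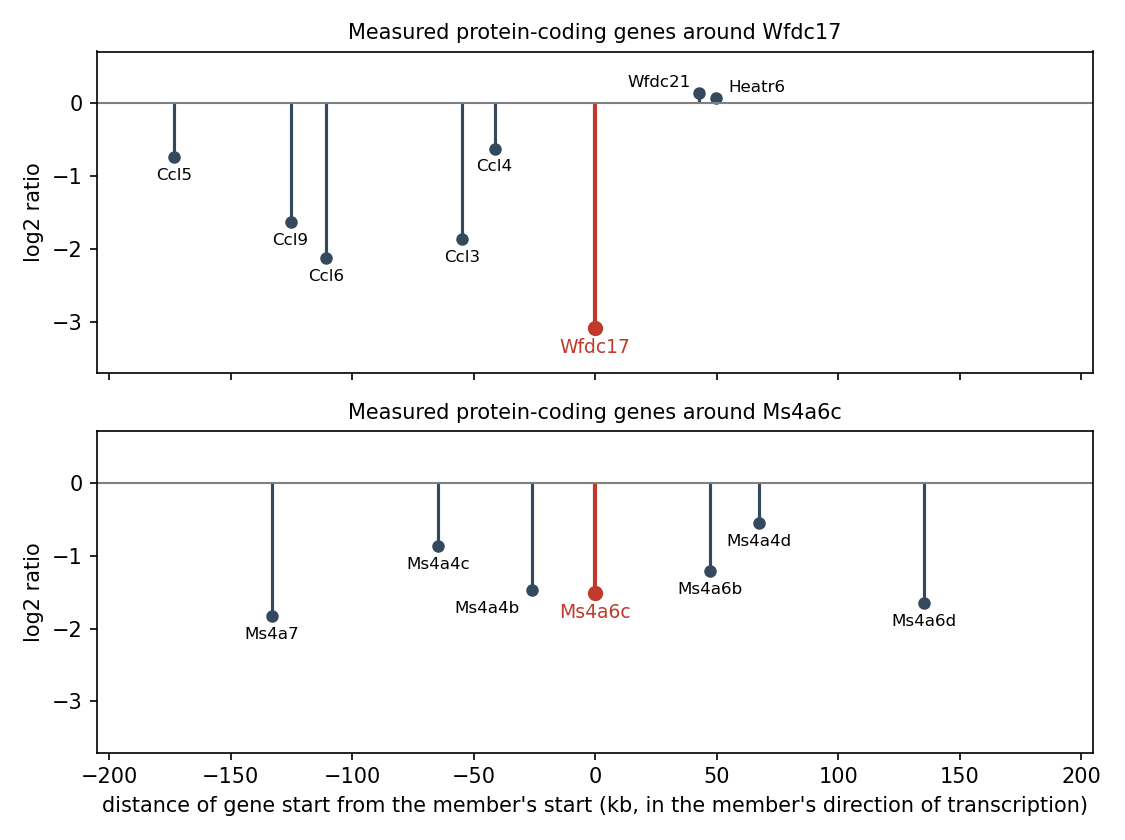
Log2 ratio of measured protein-coding genes whose start lies within 200 kb of the start of Wfdc17 or Ms4a6c (red), plotted against distance in the direction in which that gene is transcribed. Chemokine genes upstream of Wfdc17 and Ms4a genes around Ms4a6c point downwards, and Wfdc21 and Heatr6 lie near 0.

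Promoters were available from RefSeq (GRCm38.p6) for 8 of the 10 genes; Csf2rb and Arg1 had no entry. The core of the PU-box, GAGGAA, to which the myeloid transcription factor PU.1 binds, was searched on both strands in the 250 bases before each start. It was present for 5 of the 8 genes (Ly6c2, Plac8, Ms4a4c, Wfdc17 and Csf2ra) and for 25.9% of all 27025 genes with an entry. Only for Ly6c2 and Plac8 was a match found before any annotated transcribed base. The windows of Ms4a4c, Wfdc17 and Csf2ra also cover annotated transcribed bases, so the 5 are not all matches in untranscribed sequence. A match of 6 letters is a description and not a site. Both stretches below were chosen because the match lies before any annotated transcribed base; they are the 120 bases that end there, at chr15:75112067-75112186 and chr5:100572254-100572373 on the minus strand, with the match in capitals:
Ly6c2: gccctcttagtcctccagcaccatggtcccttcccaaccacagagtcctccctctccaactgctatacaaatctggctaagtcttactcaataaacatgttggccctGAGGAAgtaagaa
Plac8: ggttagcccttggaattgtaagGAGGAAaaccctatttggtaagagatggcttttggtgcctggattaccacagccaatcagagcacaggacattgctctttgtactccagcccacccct
For both genes the match lies on the coding strand.

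The measured genes most like each of the 10 in level and ratio were sought by distance in the plane of log2 FPKM of the 2 libraries, leaving out predicted genes and short RNAs. For Wfdc17 the nearest gene was Ccl8, and for Ms4a6c it was Adgre1, the macrophage antigen F4/80, at 11.4 against 35.6 FPKM. The nearest genes to the others were Nek6 for Ccr2, Akr1b8 for Plac8, Slc30a4 for Csf2ra and Reg3b for Csf2rb. For Ly6c2, Chil3, Ms4a4c and Arg1 they were Ly6g6d, Ckap2l, Gstcd and H2-Q9, each at so low a level with probucol that few fragments fix the match. With 2 libraries such likeness means only a similar pair of values.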

How the data were processed

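Total RNA (miRNeasy kit) was turned into stranded mRNA libraries (TruSeq), per the labels' protocols. The authors deposited 1 FPKM value per gene symbol and library. Tools listed in the submitters' processing notes are Cuffdiff 2.2.1, TopHat2 2.1.1 and Bowtie2, with build mm10. What each did, which annotation was used and how libraries were scaled is not stated there. Groups came from the treatment label.

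A pseudocount of 0.5 FPKM was added to each level and the log2 ratio of probucol to untreated taken, with no further scaling, for 12882 genes with a mean of at least 0.5 FPKM. Limits were 1.5-fold and 2-fold. The FPKM worth of 1 fragment was found from 5676 genes with 1 transcript in GENCODE M21 (GRCm38), with 210 bases subtracted from each length, as the step that brings low values closest to whole numbers. It was 0.149 FPKM per fragment and kb with probucol and 0.134 without. A gene's fragments then follow from the length of its lowest-numbered transcript paired with RefSeq; for genes with several transcripts they are approximate. The steps and limits were tested on simulated data. Genes that could be named were the 10 genes, those of 22 fixed lists and, for each of the 10, the nearest gene in both libraries. Genes near the 10 on the chromosome were added after the data were seen. Of the fixed lists 2 genes, and the results that need them, are not reported here. The members and lists were chosen with earlier results of these data known. Alternatives were other pseudocounts (0.1 and 1), scalings and filters, and sums over near-identical copies. Python 3.11.15, numpy and scipy were used.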

Additional observations from a re-analysis of the deposited data

How the results depend on the processing

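Under the 8 other pseudocounts, scalings and filters all 10 genes remained at least 1.5-fold lower, and between 7 and 9 were at least 2-fold lower. The share of all genes moved as well. It was lowest without a filter, at 7.46% for the 1.5-fold and 2.92% for the 2-fold limit. With FPKM divided by their sum it was highest, at 16.6% and 7.27%. The median log2 ratio of -1.28 became -1.46 with a pseudocount of 0.1, -1.08 with a pseudocount of 1 and -1.48 with FPKM divided by their sum in each library; the first pair of shifts follows from the pseudocount's weight on low genes. The last scaling moved the median of all genes to -0.13 and the share of lower genes among those past 1.5-fold from 68.4% to 83.4%. Restrictions chosen after seeing the data gave -1.31 without Ly6c2 and -1.25 for the 5 genes with at least 20 fragments in each library. Of 86 alternative values of single genes, 85 kept their direction and stayed within the half-width of the gene's counting interval. Some of these could not differ, because a filter leaves a gene's own value as it was. Chil4, listed at 0, likewise adds nothing to Chil3. The half-width is large where fragments are few, so Arg1 at -3.19 with a pseudocount of 0.1, against -2.23, still counted as unchanged. Ly6c2 summed with Ly6c1 changed direction, to 0.12, because that sum is nearly all Ly6c1. No paired analysis was possible because each group has 1 library. Depth limits Ly6c2, Ms4a4c, Chil3 and Arg1 most, each with 6 fragments or fewer in the probucol library.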
